A study of Drosophila melanogaster with 3 samples.

Results

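Transcript levels of the cytoplasmic proteins of the large ribosomal subunit were compared between larval hearts of hand[173] and w[1118] flies. The genes were 47 CG numbers, chosen by name and not by value, which cover the RpL genes, both copies of RpL34 and the stalk genes RpLP0, RpLP1 and RpLP2. Of these, 30 (63.8%) were found among the 7498 genes with a value, and 17 had none. The hand[173] animals were homozygous for a null allele of hand, a bHLH transcription factor of heart and visceral muscle cells, and w[1118] served as wild type. Both genotypes were raised at 22 °C and taken as wandering 3rd instar larvae, which were kept at 60 °C for 15 s before dissection. About 100 heart tubes of each genotype, with the pericardial cells and the muscles attached to them, gave 1 pool of RNA. The same pair of pools was amplified and hybridized to 3 two-colour arrays, on which hand[173] RNA always carried Alexa Fluor 647 and w[1118] RNA always carried Alexa Fluor 555. Dyes were not swapped, so that genotype and dye cannot be told apart. Every value below is a log2 ratio of hand[173] over w[1118] on 1 array, or the ratio itself. The study's methods describe the arrays as technical replicates of 1 pair of pools, whereas the sample titles number them with the abbreviation bR, which is not spelled out. The arrays were taken here as repeated measurements of 1 pair of pools, so that the difference between genotypes has no replicate check and no p-value stands behind the scoring of a gene.

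The large subunit of the ribosome holds the centre in which peptide bonds are formed, the tunnel through which the new peptide leaves, and a stalk that recruits translation factors. Its proteins are made in matched amounts in growing cells, under control of the Tor pathway and of Myc. In Drosophila, loss of 1 copy of many ribosomal protein genes gives the Minute phenotype of slow development and thin bristles. Ribosomal protein mRNAs are among the most abundant of a cell, and RpL32, long known as rp49, is a common reference gene for quantitative PCR in flies.

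The arrays differed from each other before any gene was considered. They held 1372, 2650 and 6459 values, and their median log2 ratios over all genes were 0.97, 0.38 and -0.56, in the order of arrays 1, 2 and 3. Values are therefore given as deposited and, where said to be centred, after subtraction of the median of the array. Arrays 2 and 3 ran together across the 1982 genes they share, with a Pearson's r of 0.77. Array 1 followed neither, with an r of 0.14 against array 3 over 937 genes and of 0.09 against array 2 over 530 genes. All these genes come from 1 pair of pools and are not independent replicates. The hand gene itself (CG18144) had a value on array 3 only, with a log2 ratio of -0.16, which gives no check of the genotypes because the part missing from the allele is not given in the sources used here. The tissue could not be checked from these values, since a ratio does not show a level. Values were present for 6 of 10 muscle markers, among them Mhc and Mlc2, and for 3 of 5 cardioblast markers. The cardioblast markers tin and pnr had none. Values were also present for 5 of 6 fat body and 3 of 6 midgut markers. The presence of a value therefore does not tell these tissues apart. In such dissected tissue, fewer cells of a type and less RNA per cell cannot be told apart.

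Of the 30 large subunit genes, 4 had a value on all 3 arrays, 10 on arrays 2 and 3, 15 on array 3 only and 1 on array 2 only. Only the 14 genes with at least 2 values could be scored. Following the study's methods, a gene was scored as lower in hand[173] where 2 or more arrays gave a ratio under 0.67, and as higher where 2 or more gave a ratio over 1.33. By this rule 4 genes, RpL3, RpL4, RpL34a and RpL37A, were scored as lower and none as higher. Over all 2517 genes with at least 2 values, 20.5% were scored as lower and 9.69% as higher. With 14 genes, 4 scored as lower is a share of 28.6%, which lies close to the share over all genes. All 4 passed the threshold on arrays 2 and 3 and on no other array. Thus none was scored without array 2 or without array 3, and all 4 were scored without array 1.

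Centring widened the group of lower genes without adding a higher one. After the array medians had been subtracted, 6 genes were scored as lower, the 4 above together with RpL6 and RpL23, and none as higher. The shares over all genes were then 21.9% lower and 11.8% higher. When the arrays were centred on the 466 genes with values on all 3 arrays, only RpL4, RpL34a and RpL37A were scored as lower, and RpL7A, RpL11 and RpL12 were scored as higher. This centre moved every gene of an array by the same amount, and over all genes 17.3% were then scored as lower and 38.9% as higher. When limma treated the arrays as independent, with Benjamini-Hochberg adjustment over all 2517 genes, no large subunit gene was called lower at an adjusted p threshold of 0.05, neither with the values as deposited nor after centring. Over all genes limma called 5.40% lower as deposited and 5.88% on centred arrays. At an unadjusted p threshold of 0.05, limma gave 1 lower large subunit gene as deposited, beside 11.9% of all genes, and 5 on centred arrays, beside 18.0% of all genes.

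**Figure D1:**
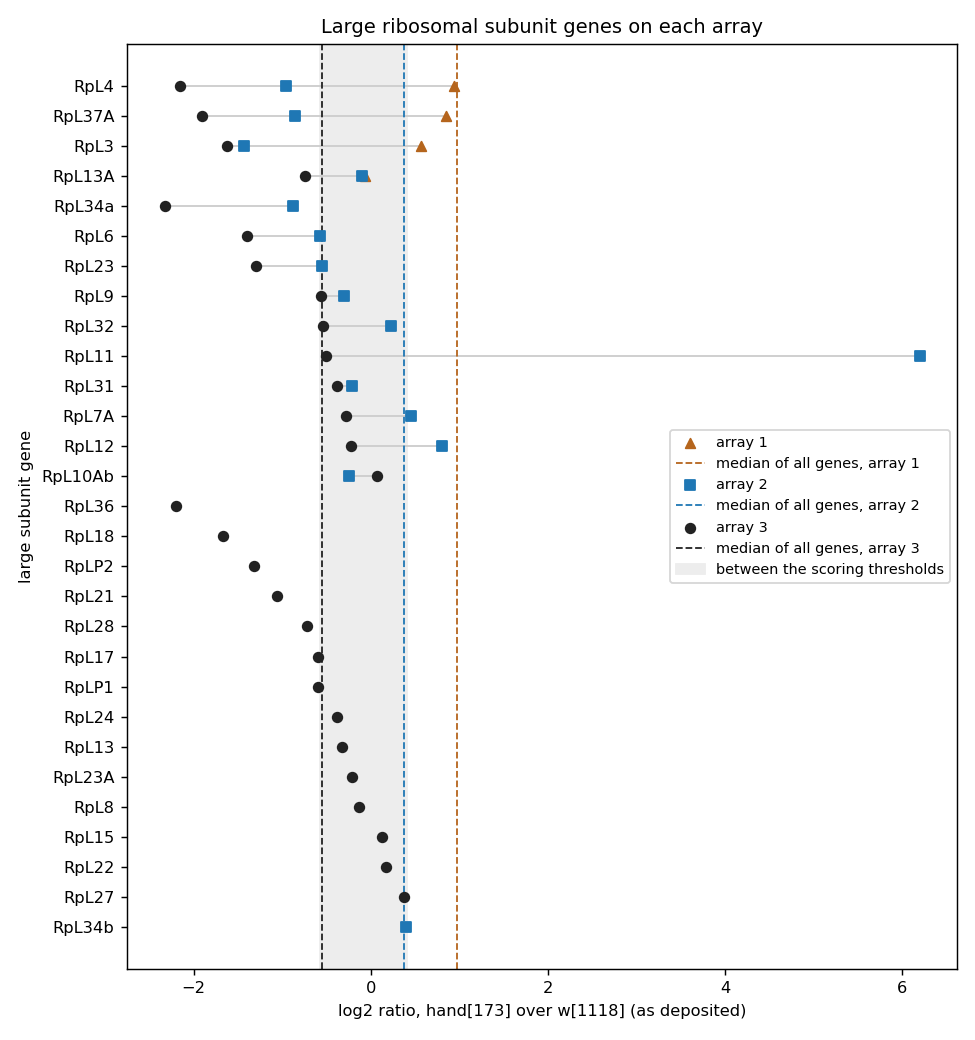
Log2 ratios of hand[173] over w[1118] as deposited, for large subunit genes with a value (y axis), with 1 symbol per array. Dashed lines mark the median of all genes of each array (0.97, 0.38 and -0.56), the grey band lies between the ratios 0.67 and 1.33, and the 4 genes with values on all 3 arrays stand at the top. RpL11 on array 2, at 6.20, lies far from all other values.

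The 4 genes scored as lower are spread over the subunit. RpL3 (CG4863), a protein that reaches into the peptidyl transferase centre, had log2 ratios of 0.57, -1.44 and -1.62 on arrays 1, 2 and 3, or ratios of 1.49, 0.370 and 0.324. RpL4 (CG5502), which lines the peptide exit tunnel, had log2 ratios of 0.94, -0.95 and -2.16, or ratios of 1.92, 0.516 and 0.224. RpL37A (CG5827), a small zinc-binding protein, had log2 ratios of 0.85, -0.86 and -1.90, or ratios of 1.80, 0.550 and 0.268. These 3 genes were alike in lying over 1.33-fold on array 1 and under 0.67 on both other arrays. Array 1 as a whole was shifted in the same way, with 77.6% of its values over 1.33-fold, and on this array the 3 genes lay below the median, by 0.40 for RpL3, 0.02 for RpL4 and 0.12 for RpL37A on the log2 scale. Of all 209 genes under 0.67 on arrays 2 and 3 that had a value on array 1, 135 (64.6%) lay over 1.33-fold on array 1, but 130 lay below the median of that array, with a median centred log2 ratio of -0.24.

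RpL34a (CG6090) had no value on array 1, -0.88 on array 2 and -2.33 on array 3, or ratios of 0.543 and 0.199. It had the lowest mean of the 14 genes, -1.60 ± 1.02 as deposited and -1.51 ± 0.36 on centred arrays (SD, n = 2 arrays), and only 8.24% of the values of array 3 were lower. In limma its adjusted p was 0.349 as deposited and 0.093 on centred arrays, which did not pass the threshold. The study listed RpL34a as lower on its arrays and measured it again by quantitative PCR on RNA of whole larvae. RpL34a is absent from the genes that the study kept after that step, and no value is given for it. Its near copy RpL34b (CG9354) had a single value, 0.40 on array 2, at the median of that array. On array 2, the only array with both, RpL34a minus RpL34b was -1.28 on the log2 scale. The probe sequences were not used here, and signal shared by close copies was not tested.

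RpL6 and RpL23 lay just outside the threshold. RpL6 (CG11522), a surface protein, had -0.57 on array 2 and -1.40 on array 3, with a ratio of 0.671 on array 2. RpL23 (CG3661), which sits on the face that meets the small subunit and where the anti-association factor eIF6 binds, had -0.56 and -1.30, with a ratio of 0.680 on array 2. After centring these 2 genes were among the most even between arrays, with means of -0.90 ± 0.08 for RpL6 and -0.84 ± 0.14 for RpL23 (SD, n = 2 arrays). The centred level of RpL6 was thus 0.538 of wild type and that of RpL23 was 0.560, each against the median gene of the array.

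RpL13A (CG1475) was the only gene with 3 values that did not change sign between arrays as deposited, with -0.06, -0.10 and -0.75 and a mean of -0.30 ± 0.38 (SD, n = 3 arrays). It passed the threshold on array 3 only. On centred arrays it was -1.03, -0.47 and -0.19, so that here array 1 gave the lowest value, whereas array 1 gave the highest centred value of RpL3, RpL4 and RpL37A.

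The remaining 7 genes with 2 values did not share a direction. RpL9 (CG6141), which lies near the base of the stalk, had -0.31 on array 2 and -0.57 on array 3. RpL31 (CG1821), at the rim of the exit tunnel, had -0.21 and -0.39. RpL10Ab (CG7283), which forms the mobile stalk over the tRNA exit site, had -0.25 and 0.07. These genes were low on array 2 against its median, by 0.68, 0.59 and 0.63 on the log2 scale, but on array 3 RpL9 lay at the median, and RpL31 and RpL10Ab lay above it by 0.17 and 0.63. RpL32 (CG7939), the reference gene rp49, had 0.23 and -0.54 as deposited, and -0.15 and 0.01 on centred arrays, a mean of -0.07 ± 0.11 (SD, n = 2 arrays). RpL7A (CG3314) had 0.45 and -0.28, and RpL12 (CG3195), which binds the ribosomal RNA at the base of the stalk, had 0.81 and -0.23. After centring both lay above the median on each array, RpL7A with a mean of 0.18 ± 0.14 and RpL12 with a mean of 0.38 ± 0.07.

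RpL11 (CG7726) stood apart from all other large subunit genes. This protein binds the 5S ribosomal RNA together with RpL5, which had no value. Its log2 ratio was 6.20 on array 2, a ratio of 73.5, and -0.51 on array 3, a ratio of 0.703. On array 2 only 2 genes of 2650 had a higher ratio, whereas on array 3 RpL11 lay at the middle of the array, with 52.5% of the values below it. The mean of 2.84 ± 4.74 (SD, n = 2 arrays) has no direction beyond its spread. Limma as deposited nevertheless called RpL11 higher, with an adjusted p of 0.0118. That model assigned the same spread to each gene, so that the gap between the arrays did not enter, and it called 0.318% of all genes higher. On centred arrays the adjusted p of RpL11 was 0.352, and limma called 0.00% of all genes higher.

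Over the 14 genes, the median of the mean log2 ratio was -0.37, beside 0.05 over all genes with at least 2 values. On centred arrays it was -0.46, beside 0.01. The median SD of these genes between arrays was 0.45 on centred arrays, beside 0.40 over all genes. Of the 14 genes, 8 lay below the array median on every array with a value, 3 lay above it on every array and 3 were mixed. Over all genes, 31.5% lay below on every array and 32.6% above. Between arrays 2 and 3 the 14 genes gave a Pearson's r of 0.42 and a Spearman's rho of 0.82. Without RpL11, an omission chosen after its values were seen, Pearson's r was 0.79 over 13 genes.

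**Figure D2:**
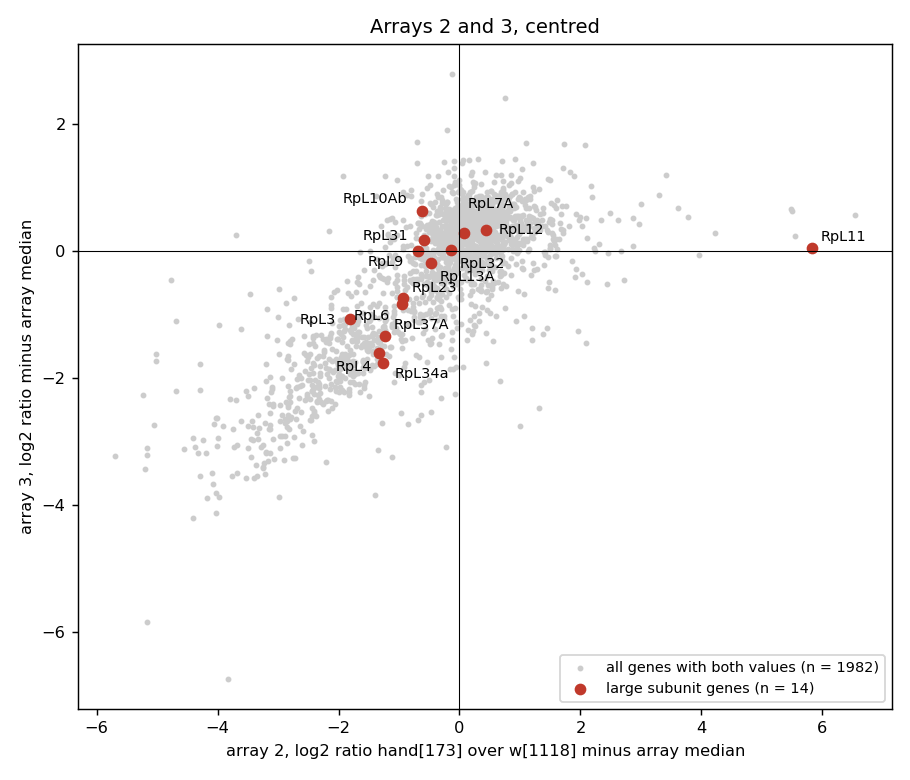
Centred log2 ratios of hand[173] over w[1118] on array 2 (x axis) and array 3 (y axis) for all 1982 genes with both values (grey) and the 14 large subunit genes among them (red). RpL3, RpL4, RpL34a, RpL37A, RpL6 and RpL23 lie in the lower left among many other genes, and RpL11 lies at the far right.

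Single arrays gave different pictures. On array 2, where 15 of the genes had a value, the median centred log2 ratio was -0.63, and 11 genes lay below the array median. On array 3, with 29 of the genes, it was -0.01, with 15 genes below the array median and 14 above. On array 1 all 4 genes with a value lay below the array median, with a median of -0.26. As deposited, 14 of the 29 genes had a ratio under 0.67 on array 3, a share of 48.3%, beside 49.0% of all genes on that array. The quartiles of the 29 genes on array 3 were -0.76 and 0.33, beside -0.69 and 0.45 over all genes. The large subunit genes thus spread about as widely as the genes of the array in general.

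The ratios on array 3 differed between genes grouped by the arrays on which they had a value. The 4 genes with values on all 3 arrays had a median centred log2 ratio of -1.21 on array 3, the 10 genes with values on arrays 2 and 3 had 0.03, and the 15 genes with a value on array 3 only had 0.18. Over all genes, the medians of these classes were -0.57 (466 genes), 0.08 (1516 genes) and -0.03 (4006 genes). Among genes with 3 values, 3 of 4 large subunit genes were scored as lower, beside 45.3% of all genes of this class. Among genes with values on arrays 2 and 3, 1 of 10 was scored as lower, beside 19.3% of all genes. What decided whether a value was kept is not given in the sources used here, and its part in these ratios was not tested.

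The 15 genes with a value on array 3 only covered a wide range. The lowest was RpL36 (CG7622), a small surface protein, with -2.20, followed by RpL18 (CG8615) with -1.67 and RpLP2 (CG4918), a protein of the stalk, with -1.32. Among the highest were RpL27 (CG4759) with 0.38 and RpL22 (CG7434), which in Drosophila carries a histone H1-like extension, with 0.17. On centred values the lowest of these 15 genes was -1.65 and the median 0.18, with 7 below the array median and 8 above. Each of these rests on 1 measurement and has no error.

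Read by their place in the subunit, the stalk, the peptidyl transferase centre and the exit tunnel each held genes on both sides of the array median. In the stalk, RpLP2 had a centred log2 ratio of -0.76 on array 3, RpLP1 (CG4087) had -0.04 and RpL12 had 0.33, and RpLP0 had no value. At the peptidyl transferase centre, RpL3 had -1.07 and RpL8 (CG1263) had 0.42 on the same scale, and RpL10 had no value. Along the exit tunnel, RpL4 had -1.60, RpL17 (CG3203) had -0.04, RpL31 had 0.17 and RpL23A (CG7977), which docks the signal recognition particle, had 0.34. RpL19, RpL26, RpL35 and RpL39 of the same region had no value. RpL24 (CG9282), which bridges to the small subunit, had 0.18. The other genes with 1 value were RpL13 (CG4651) with 0.23, RpL15 (CG17420) with 0.68, RpL21 (CG12775) with -0.50 and RpL28 (CG12740) with -0.17. No value was present for RpL5, RpL7, RpL14, RpL27A, RpL29, RpL30, RpL35A, RpL36A, RpL37-1, RpL38 and RpL40, the last of which is made as a fusion to ubiquitin.

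The proteins of the small subunit were taken as the nearest comparison. Values were present for 27 of 38 small subunit genes, and 13 had at least 2 values. Of these, 6 were scored as lower and 1 as higher as deposited, against 4 and 0 of the 14 large subunit genes. The shares over all genes were 20.5% and 9.69%. On centred arrays both lists had 6 lower genes, with 2 higher genes in the small subunit and 0 in the large. Over genes with at least 2 values, the median of the mean centred log2 ratio was -0.16 for the small subunit and -0.46 for the large. On array 3 the large subunit genes had a median centred log2 ratio of -0.01 (29 genes) and the small subunit genes one of -0.96 (23 genes), and on array 2 the medians were -0.63 (15 genes) and -1.03 (14 genes). On array 1 the order was the opposite, with -0.26 for the large subunit (4 genes) and 0.24 for the small subunit (9 genes). The lowest value of the large subunit on array 3 was that of RpL34a, -1.77, while RpS7 reached -3.06. The difference between the lists was not tested, since the genes of 1 pair of pools are not replicates of a condition. Among 26 genes of the mitochondrial large subunit with a value, the medians were -0.32 on array 2 (11 genes) and -0.14 on array 3 (20 genes). Of the 6 with at least 2 values, mRpL27 was scored as lower and none as higher.

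**Figure D3:**
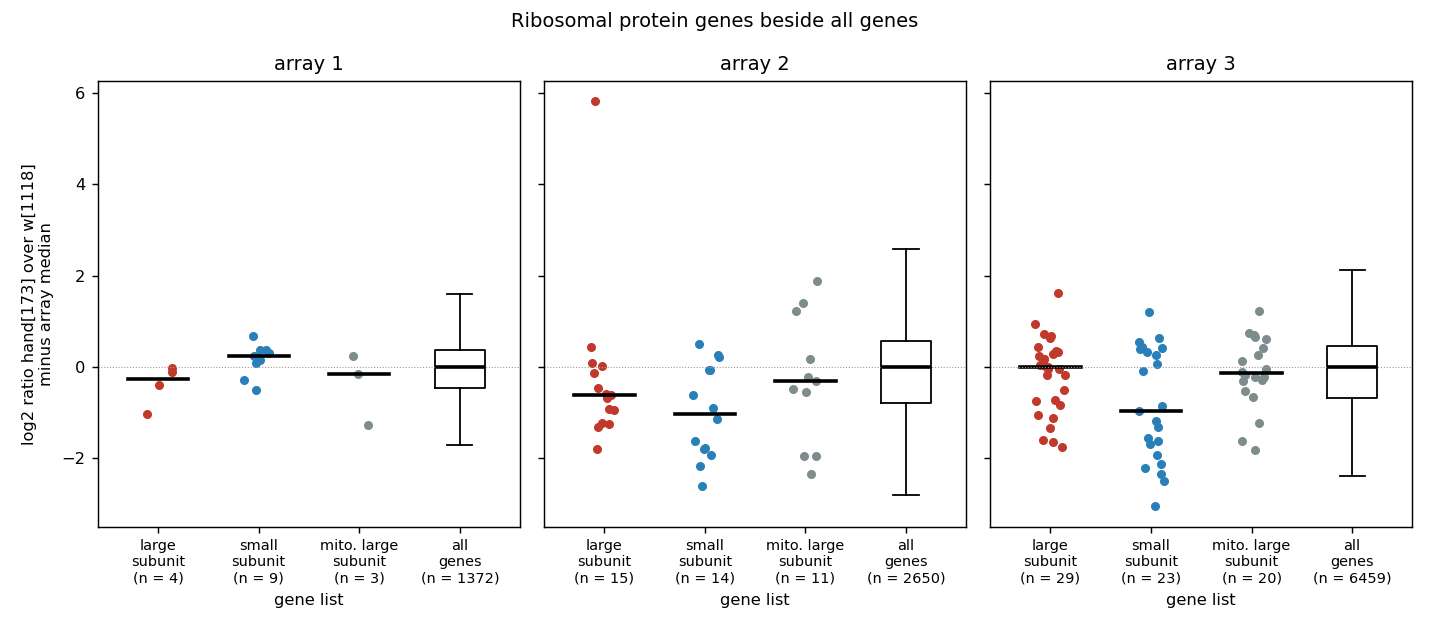
Centred log2 ratios of hand[173] over w[1118] (y axis) on each of the 3 arrays for genes of the large subunit, the small subunit and the mitochondrial large subunit (points, with the median as a bar) and for all genes (box with median and quartiles). On array 3 the median of the large subunit lies at -0.01 and that of the small subunit at -0.96.

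Of 6 genes related by name to large subunit genes but not part of the subunit list, 5 had a value. How close they are in sequence was not computed. Only 3 of these had at least 2 values and could be scored. RpL7-like (CG5317) had 1.13 on array 2 and 1.84 on array 3 and was the 1 gene scored as higher. Over all genes, 9.69% were scored as higher. RpL24-like (CG6764) had 0.35 and 0.17, and RpL22-like (CG9871), a copy known from testis, had 0.27 and -0.34. RpL10Aa (CG3843) had a value on array 3 only, -1.99, whereas its copy RpL10Ab had 0.07 there. RpL37-2 (CG9873) had a value on array 2 only, -0.38.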

How the data were processed

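Two-colour arrays were hybridized with amplified RNA of 1 pool of heart tubes per genotype, and the authors acquired and normalized the scans with GenePix and Acuity. The deposited table holds a single log2 ratio for each gene of an array. How spots were normalized, filtered and combined, and which genome build was used, is not given in the sources used here. Precision is limited by the number of arrays. The labelling protocol in the sample labels speaks of fat body RNA, whereas the tissue labels and the methods name hearts. The direction, hand[173] over w[1118], was taken from the dyes and from the signs of genes that the study lists with a direction. That the log base is 2 was read from the values: as powers of 2, between 97.8% and 99.5% of 400 values per array were whole thousandths times 1 factor (tolerance 0.02), against at most 12.7% with e or 10.

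Values were used as deposited and centred on the median of each array. The large subunit genes and all lists were chosen with earlier results of these data known. Genes named with each value are those with values on at least 2 arrays, and of those with a value on array 3 only, the lowest and highest, of which 1 value is not reported here. Further genes are named by their place in the ribosome, as relatives of members by name, or from the lists. Symbols came from RefSeq (Drosophila reference assembly, Release 6), in which 7085 of 7498 numbers were found, and no coordinates or sequences are given. Scoring and limma were tested on simulated data. Alternatives were other thresholds, centres and filters, leaving out each array, and limma with the arrays taken as independent. Centring on genes with values on arrays 2 and 3 and leaving out RpL11 were chosen after the values were seen. Python 3.11.15, numpy 2.4.6, pandas 2.3.3, R 4.3.3 and limma 3.58.1 were used.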

Additional observations from a re-analysis of the deposited data

How the results depend on the processing

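No gene was scored as lower when all 3 arrays were required, and 1 gene, RpL3, with a 2-fold threshold. In limma, 0 genes were called lower as deposited and 0 on centred arrays. Leaving out 1 array gave between 0 and 4 lower genes and 0 higher genes. One gene, RpL11, was higher when the mean log2 ratio had to pass the threshold, 1 in limma as deposited, and 3 with the arrays centred on genes with 3 values. Against 4 lower genes in the values as deposited, 6 were lower when the mean log2 ratio had to pass. The count was also 6 with a threshold symmetric on the log scale and on arrays centred with or without scaling. On arrays centred without scaling, 21.9% of all genes were scored as lower. The shares over all genes are not given here for the other thresholds, the mean log2 ratio, all 3 arrays, scaling or left-out arrays. Those counts therefore have no background beside them. The median of the mean log2 ratio, -0.37 as deposited, ran from -0.68 for genes with 3 values only to 0.00 with centring on genes with 3 values. It ran from -0.53 to -0.15 when 1 array was left out. Centring on genes with 3 values moved all genes alike, with 17.3% of all genes then scored as lower and 38.9% as higher. The median over all genes at this setting is not given here, so that the value of 0.00 has no background beside it. As deposited, the large subunit genes had a median of 0.71 on array 1, of -0.25 on array 2 and of -0.57 on array 3, and with centring on genes with 3 values it was -0.12 on array 2 and 0.56 on array 3. No paired analysis was possible because all arrays carry the same pair of pools and form 1 group.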

Other observations

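Of 38 ribosome biogenesis factors, 20 had a value and 4 had at least 2. Of these, Rpp30, a subunit of RNase P, had 1.59 on array 2 and 0.82 on array 3 and was scored as higher. So was kz, an RNA helicase, with 1.65, 0.42 and -0.17 on arrays 1, 2 and 3. Over all genes, 9.69% were scored as higher. On centred arrays kz had 0.69, 0.04 and 0.38 and was not scored. The nucleolar GTPase Ns2 had 4.16 on array 2 and -0.02 on array 3, a gap of the same kind as that of RpL11. On centred arrays Ns2 had 3.78 and 0.53 and was scored as higher. None of the 4 factors with at least 2 values was scored as lower. The lowest on array 3 were Nle, a factor of large subunit assembly, with -2.96 and Surf6 with -2.67, each with a value on this array alone. The 17 factors with a value on array 3 had a median centred log2 ratio of -0.20, in a range from -2.41 to 1.38. Of these 17, 10 lay below the array median.

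Among regulators of growth that act on ribosomal protein genes, 9 of 22 had a value. Tsc1, an inhibitor of the Tor pathway, had 1.26, -1.63 and -1.94 on arrays 1, 2 and 3 and was scored as lower, with the opposite sign on array 1 as deposited, as in RpL3, RpL4 and RpL37A. Trf2, a TBP-related factor that serves ribosomal protein promoters in Drosophila, had 0.50 on array 2 and -1.02 on array 3. The insulin receptor substrate chico had 0.34 and -0.87. Neither of them was scored.

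Among fat body markers, Lsp1alpha had 1.36, -3.30 and -3.61 on arrays 1, 2 and 3, whereas Lsp1gamma had 1.45 on array 1 and -0.20 on array 3, and Lsp2 had 0.49 on array 3. Fbp1 had 1.10 on array 1 and 0.91 on array 2 and was scored as higher. On centred arrays Fbp1 had 0.14 and 0.53 and was not scored. Values were present for 5 of 6 fat body, 4 of 6 pericardial nephrocyte, 3 of 6 midgut and 2 of 6 hemocyte markers. On array 3 the centred medians were 0.19 (4 fat body genes), 0.30 (2 nephrocyte genes), 0.31 (2 midgut genes) and 0.41 (2 hemocyte genes). The ranges were -3.05 to 1.04 for fat body, -0.19 to 0.80 for nephrocyte, 0.00 to 0.61 for midgut and -0.22 to 1.04 for hemocyte markers. The part of these cell types in the ratios of the ribosomal genes was not tested.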
